A study of Mus musculus with 4 samples.

Results

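The 10 genes described here mark and serve the Sertoli cell, the supporting cell of the testis: Sox9, Sox8, Dmrt1, Amh, Ptgds, Cst9, Defb19, Vnn1, Aard and Mro. They were chosen by symbol as known Sertoli cell regulators and products, and all 10 were among the 40999 features listed in the gene tables of 4 mouse gonad libraries. The libraries were made from wild-type C57BL/6J embryos on 4 consecutive embryonic days, the first being E11.5 and the last E14.5. A single library stands for each day, and it pooled XX with XY gonads, at least 6 of each sex from 2 litters. The mesonephros stayed on the gonad at E11.5 only. The labels name no treatment. Sertoli cells arise in the XY gonads of such a pool and not in the XX gonads. In bulk tissue a change in the number of these cells cannot be told apart from a change in RNA per cell.

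In the XY gonad, a short pulse of the Y-linked factor SRY starts expression of SOX9 in the supporting cell precursors, which then become Sertoli cells and enclose the germ cells in cords. SOX9 works with its close relative SOX8, and with GATA4, NR5A1 and WT1, to switch on secreted products such as AMH, the hormone that makes the Müllerian ducts regress. DMRT1 later keeps Sertoli cells from turning into granulosa cells, and it is also made by germ cells.

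Libraries held between 25593453 and 31752562 deduplicated counts. The E14.5 library stood apart, with 40.7% of its counts on the ribosomal RNA gene Rn18s-rs5 against 1.03% to 9.06% in the other 3 libraries. For this reason levels between libraries are given as scaled levels, which are TMM-scaled CPM per kb of exon, and genes within a library are compared by their TPM, or by ratios of TPM, which do not depend on scaling. Gata4, Wt1 and Nr5a1, which mark somatic cells of the gonad, had scaled levels of 12.8 or more in all 4 libraries. LogFC is the log2 fold change of TMM-scaled counts, positive when the later library was higher, and a gene was called changed at 2-fold or more. Without replicates no p-value is given. Each value compares 2 libraries, not conditions, and the exact Clopper-Pearson 95% intervals in parentheses cover counting error only.

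On mm10, Sox9 lies at chr11:112782210-112787757, Sox8 at chr17:25565893-25570686 and Dmrt1 at chr19:25505706-25604328. Of the other genes, 3 lie on chromosome 2: Ptgds at chr2:25466709-25470113, Cst9 at chr2:148835147-148838737 and Defb19 at chr2:152576086-152580312. Amh at chr10:80805018-80807679 and Vnn1 at chr10:23894688-23905343 share chromosome 10, and Aard lies at chr15:52040107-52045722. Reads were counted over exons of the whole gene. None of these 9 genes overlapped another listed feature.

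The region around the transcription start in RefSeq (GRCm38.p6) is shown for 3 of the 10 genes, which were among those that rose by E12.5. For the other 7 it was not matched or is not printed. Each sequence runs 5′ to 3′ on the strand of the gene, from 250 bases before the start site to 50 bases after it. Capitals mark matches on either strand to the SOX words ACAAAG or ACAATG, the GATA words AGATAA or TGATAA, and the NR5A1 words AAGGTCA or AAGGCCA. None of these words overlapped another in the 3 sequences.
Ptgds, chr2:25469700-25469999, minus strand: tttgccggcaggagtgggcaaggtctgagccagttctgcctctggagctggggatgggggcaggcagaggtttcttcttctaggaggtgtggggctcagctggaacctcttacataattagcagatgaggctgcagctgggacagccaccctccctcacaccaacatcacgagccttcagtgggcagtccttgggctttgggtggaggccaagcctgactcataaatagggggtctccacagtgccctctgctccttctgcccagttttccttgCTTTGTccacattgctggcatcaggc
Cst9, chr2:148834897-148835196, plus strand: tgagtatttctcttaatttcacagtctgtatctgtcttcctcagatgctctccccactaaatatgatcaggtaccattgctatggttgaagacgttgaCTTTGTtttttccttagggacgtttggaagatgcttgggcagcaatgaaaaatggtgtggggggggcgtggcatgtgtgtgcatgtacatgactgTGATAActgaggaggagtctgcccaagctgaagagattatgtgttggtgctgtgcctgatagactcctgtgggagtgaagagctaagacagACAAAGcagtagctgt
Sox8, chr17:25570637-25570936, minus strand: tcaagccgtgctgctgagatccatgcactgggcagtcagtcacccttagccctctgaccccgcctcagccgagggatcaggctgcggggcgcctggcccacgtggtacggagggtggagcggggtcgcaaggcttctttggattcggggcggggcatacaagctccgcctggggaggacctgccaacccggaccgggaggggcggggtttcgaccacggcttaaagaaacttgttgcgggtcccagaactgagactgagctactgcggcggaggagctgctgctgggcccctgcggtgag
The Cst9 window held 3 matches, a SOX word from base −152 to −147 relative to the start site, a GATA word from −57 to −52 and a SOX word from 35 to 40. The Ptgds window held 1 match, a SOX word from base 25 to 30, and its start site lies inside the span that the gene tables give to the gene. No such word was found in the Sox8 window, which was the richest in G and C of the 3, at 66.3% against 57.7% for Ptgds and 46% for Cst9. Among all 32851 RefSeq windows of this length, 28.6% held a SOX word, 18.6% a GATA word and 10.6% an NR5A1 word. A match of this kind is a description of the letters and not a binding site.

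Between E11.5 and E12.5, 9 of the 10 genes rose by at least 2-fold and none fell, where 8.64% of the 19215 genes tested were higher, 9.11% lower and 17.8% either by that measure. The median logFC of the 10 genes was 3.72, against −0.00 for all genes tested. Sox9 was the exception, and was the most abundant of the 10 at E11.5. The 10 genes together held 3769 counts in the first library, then 23012, 26800 and 13666, which were 0.0121%, 0.0899%, 0.0844% and 0.0433% of all counts. Their summed scaled level was 35.1, 468, 472 and 526, so that nearly all of the gain lay in the first day.

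**Figure D1:**
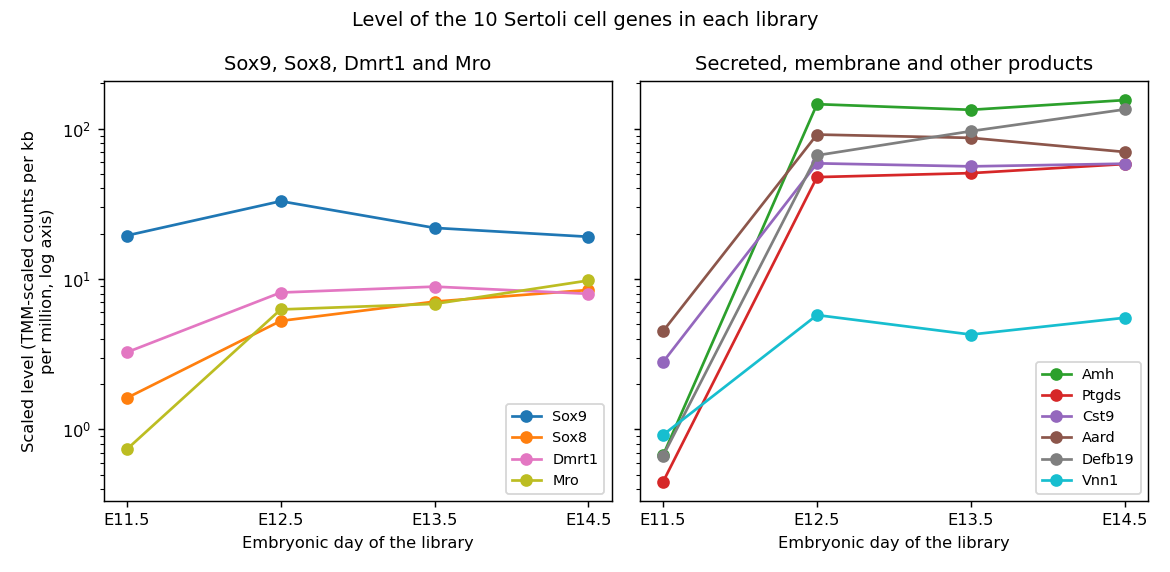
Scaled level (TMM-scaled CPM per kb of exon, log axis) of the 10 Sertoli cell genes by embryonic day, with 1 point per library and no replicate. Sox9 starts at 19.4 and stays between 19.1 and 32.9, whereas Amh goes from 0.673 to 145 between the first 2 libraries and stays above 130.

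Sox9, the transcription factor that commits supporting cells to the Sertoli fate, had scaled levels of 19.4, 32.9, 21.9 and 19.1 in the libraries of E11.5 to E14.5, from 2763, 4282, 3587 and 1490 counts. It peaked at E12.5, and its first and last levels were close to each other. Its logFC from E11.5 to E12.5 was 0.76 (0.69–0.83), below the 2-fold call, although the deposited TPM put it just past, at 1.04. From E12.5 to E13.5 it was −0.59 (−0.66 to −0.53), and E14.5 against E12.5 gave −0.77 (−0.86 to −0.69). Both later values stayed negative under every scaling tried, but only the deposited TPM and total counts brought the second one past 2-fold.

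Sox8, the SOX9 relative that supports Sertoli cell maintenance, had scaled levels of 1.62, 5.26, 7.07 and 8.45 from E11.5 to E14.5, from 166, 495, 839 and 477 counts. It had the lowest TPM of the 10 genes at E12.5 and was highest by scaled level in the last library, the opposite of Sox9. It rose 3.26-fold in the first day (2.73–3.91), with a logFC of 1.70. LogFC was 0.42 (0.26–0.59) at E13.5 against E12.5 and 0.28 (0.11–0.44) at E14.5 against E13.5, both within 2-fold, and the second turned negative under total counts and TPM.

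The ratio of Sox8 to Sox9 inside each library, which is free of any scaling, went up at each step. It began at 0.0831 (0.0706–0.0972), followed by 0.160 (0.145–0.175), 0.323 (0.300–0.349) and finally 0.443 (0.398–0.491) at E14.5, with no overlap between neighbouring intervals. Sox9 thus remained the more abundant of the pair throughout. Only the E11.5 library held mesonephros, and the part of its Sox9 counts from that tissue was not tested. The same limit holds for the other E11.5 ratios with Sox9, and for the counts of the genes it is set against. Against Gata4, a transcription factor of gonadal somatic cells in both sexes, Sox9 TPM was 0.563 (0.536–0.591) at E11.5 and then 0.349, 0.250 and 0.238. Against Wt1, a zinc-finger factor needed for the gonad to form, it was 0.192, 0.364, 0.280 and 0.330. The Sox9 course therefore depended on the gene it was set against: relative to Gata4 it was highest at E11.5, and relative to Wt1 at E12.5. Between those 2 libraries Gata4 itself had a logFC of 1.45 and Wt1 of −0.16.

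Dmrt1, the DM-domain factor, had scaled levels of 3.25, 8.12, 8.89 and 7.97, from 309, 707, 976 and 416 counts. It rose 2.50-fold in the first day (2.18–2.87; logFC 1.32), the smallest rise among the 9 called genes, and the intervals of both later steps included 0. The germ cell list, whose cells also make Dmrt1, moved at the same step, with 7 of its 8 tested genes higher and a summed scaled level of 10.8, 136, 175 and 177 from E11.5 to E14.5. The share of Dmrt1 that came from germ cells was not tested. Mro, which encodes the nucleolar protein maestro, lies at chr18:73851824-73881334 and had scaled levels of 0.736, 6.27, 6.82 and 9.77, from 113, 881, 1210 and 824 counts. It rose 8.51-fold in the first day (logFC 3.09, 2.81–3.39), and its logFC of 0.54 (0.41–0.66) at E14.5 against E13.5 was the largest of the 10 at that step, within 2-fold and negative under total counts and TPM. Mro overlaps the opposite-strand feature LOC102635280, which had at most 2 counts in any library.

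Amh had 45, 8900, 10299 and 5683 counts from E11.5 to E14.5, with scaled levels of 0.673, 145, 133 and 155. Only the first library was low, and the other 3 lay close together. The gain of 216-fold in the first day (161–297; logFC 7.75) was the largest of the 10 genes. By TPM it moved from rank 11816 among 20012 protein-coding features at E11.5 to ranks 179, 185 and 165 in the later libraries. Relative to Sox9 it went from 0.0346 (0.0252–0.0465) at E11.5 to 4.42 (4.26–4.58), 6.10 (5.88–6.34) and 8.11 (7.66–8.59) on the following days, so that Amh TPM passed that of Sox9 within a day and the gap widened with each library. Relative to Gata4 it was 0.0195, 1.54, 1.52 and 1.93.

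Ptgds, the enzyme that makes prostaglandin D2, a signal that helps SOX9 enter the nucleus, had 14, 1362, 1826 and 998 counts and scaled levels of 0.448, 47.6, 50.6 and 58.1. It rose 105-fold in the first day (63.1–195). Defb19, a small beta-defensin peptide, had 9, 821, 1500 and 996 counts and scaled levels of 0.667, 66.4, 96.2 and 134. It rose 98.3-fold in the first day (52.3–219). Together with Amh these were the genes with the fewest counts at E11.5, where the small counts set the width of the intervals.

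Defb19 gained most after E12.5 by scaled level. Its logFC was 0.53 (0.41–0.66) at E13.5 against E12.5 and 0.50 (0.38–0.62) at E14.5 against E13.5. Over both days it reached 2.04-fold (1.86–2.24; logFC 1.03), which was just past the call and was the only call among the 10 genes between E12.5 and E14.5, but the logFC was −0.02 with total counts and −0.47 with the deposited TPM, and the call was lost without the filter on low counts. Set against Amh in the same library, with no scaling, Defb19 TPM was 0.990 (0.425–2.05) at E11.5, and then 0.457 (0.425–0.490), 0.721 (0.682–0.761) and 0.867 (0.810–0.928). The last 3 intervals did not overlap, whereas the E11.5 value rests on 9 and 45 counts. Ptgds against Amh was 0.327 (0.309–0.346), 0.379 (0.360–0.398) and 0.375 (0.351–0.402) over the same 3 libraries, higher at E13.5 than at E12.5 beyond counting error, while the last 2 intervals overlapped.

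**Figure D2:**
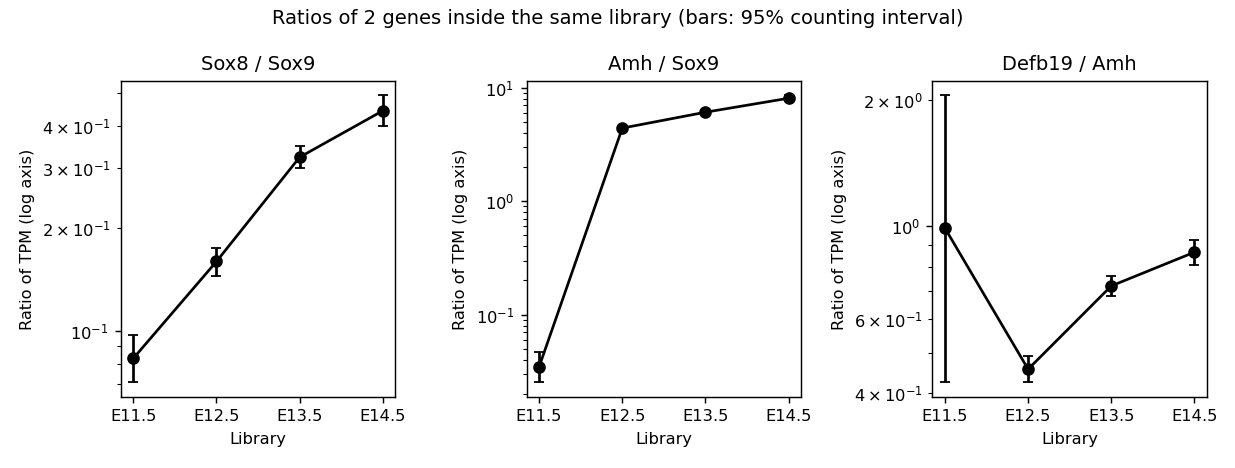
Ratio of the TPM of 2 genes inside the same library (log axes) for Sox8 to Sox9, Amh to Sox9 and Defb19 to Amh, with exact 95% counting intervals as bars. Sox8 to Sox9 goes from 0.0831 to 0.443 and Amh to Sox9 from 0.0346 to 8.11 between E11.5 and E14.5, and Defb19 to Amh from 0.457 at E12.5 to 0.867 at E14.5.

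Cst9, a cystatin-related secreted protein also called testatin, had 66, 1265, 1523 and 755 counts and scaled levels of 2.81, 58.8, 56.1 and 58.5. After a 20.9-fold rise in the first day (16.3–27.3) its logFC between E12.5 and E14.5 was nearest to 0 of the 10 genes, at 0.00 (−0.13 to 0.14), although it was −1.50 with the deposited TPM. Aard, which encodes a protein rich in alanine and arginine, had 208, 3863, 4632 and 1776 counts and scaled levels of 4.50, 91.3, 86.8 and 70.0. It rose 20.3-fold in the first day (17.6–23.4), and E14.5 against E12.5 gave a logFC of −0.37 (−0.45 to −0.29), within 2-fold. Against Amh, Aard TPM was 0.628 (0.604–0.652) at E12.5, then 0.651 (0.628–0.674), and 0.452 (0.428–0.477) in the last library.

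Vnn1, a membrane-anchored pantetheinase, had 76, 436, 408 and 251 counts and scaled levels of 0.918, 5.75, 4.27 and 5.52. It rose 6.26-fold in the first day (4.90–8.11). By scaled level the E13.5 library was the lowest of the last 3, with a logFC of −0.43 (−0.63 to −0.24) from E12.5 and 0.39 (0.16–0.62) to E14.5, neither past 2-fold, and the second negative under total counts and TPM.

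**Figure D3:**
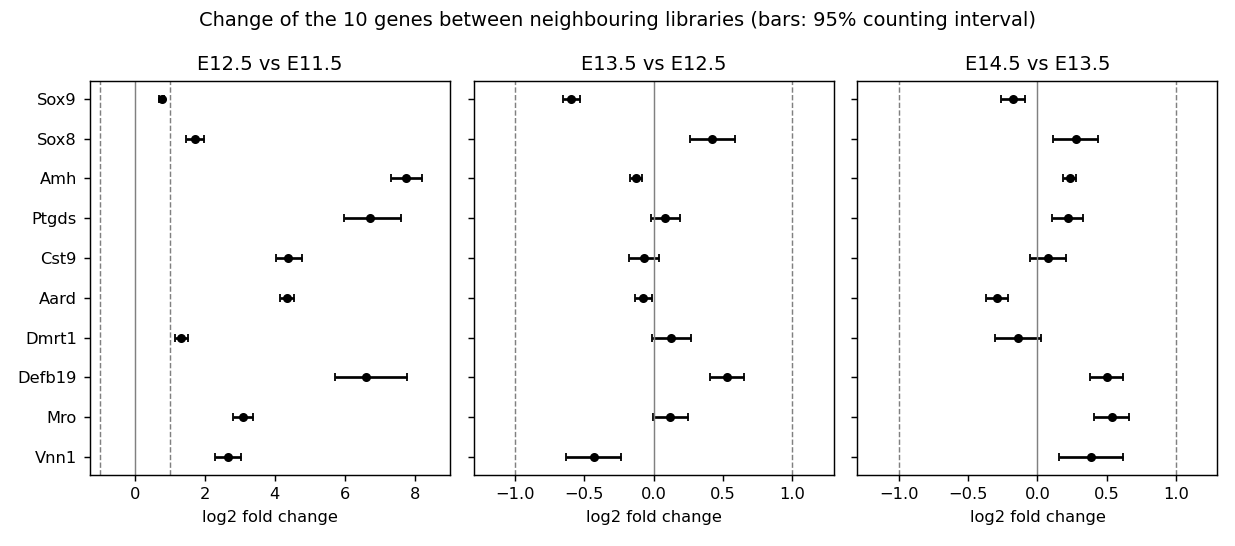
LogFC of each of the 10 genes between neighbouring libraries, with exact 95% counting intervals as bars and dashed lines at 2-fold, where the first panel has a wider axis. In the first step 9 genes lie past 2-fold and Sox9 at 0.76 does not, and in the later 2 steps all 10 lie within 2-fold.

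After E12.5 the scaled levels of the 10 genes mostly stayed within 2-fold. None was called between E12.5 and E13.5, where 3.28% of the 19152 genes tested were higher, 1.98% lower and 5.27% either, and the median logFC of the 10 was 0.01. None was called between E13.5 and E14.5, where 6.44% of 18992 were higher, 2.51% lower and 8.95% either, with a median of 0.23. Between E12.5 and E14.5, both free of mesonephros, 1 of 10 was called higher, Defb19, where 8.44% of 18704 were higher, 3.33% lower and 11.8% either, with a median of 0.05. Neighbouring comparisons share a library, so their values are not independent of each other. At E14.5 the deposited TPM was lower than at E13.5 for the typical gene, with a median log2 ratio of −1.63 over the tested genes, and by that unit all 10 members were more than 2-fold lower at E14.5.

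By TPM, which allows for gene length, the order of the genes inside a library changed between E11.5 and E12.5 and little afterwards. At E11.5 Sox9 held 55.5% of the summed TPM of the 10 genes, followed by Aard with 12.8%, Dmrt1 with 9.27%, Cst9 with 8.01% and Sox8 with 4.61%. Vnn1, Mro, Amh, Defb19 and Ptgds came last, and no neighbouring pair among these differed beyond counting error, nor did Dmrt1 and Cst9.

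At E12.5 Amh led with 31.1%, ahead of Aard with 19.5%, Defb19 with 14.2%, Cst9 with 12.6%, Ptgds with 10.2% and Sox9 with 7.04%. Dmrt1, Mro, Vnn1 and Sox8 made up the rest, and in this group Mro did not differ from Vnn1 nor Vnn1 from Sox8. The leading 5 genes by TPM were the same at E13.5 and at E14.5, with Defb19 now ahead of Aard, and Sox9 was sixth each time. At E14.5 Amh held 29.4%, Defb19 25.5% and Sox9 3.63%. Sox8 and Mro at E13.5, Cst9 and Ptgds at E14.5, and Sox8 and Dmrt1 at E14.5 did not differ beyond counting error.

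Shares of counts, not divided by length, gave another order below the first gene of each library. Sox9, with 4146 bases of exon, held 73.3% of the counts of the 10 genes at E11.5 and 18.6%, 13.4% and 10.9% on the later days, behind Amh alone at E12.5 and behind Amh and Aard afterwards. Defb19, with 394 bases, held 3.57%, 5.60% and 7.29% on those days and stayed behind Aard on each, which held 16.8% at E12.5 and 17.3% at E13.5. Amh led from E12.5 on by either measure, with 38.7% of the counts at E12.5.

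**Figure D4:**
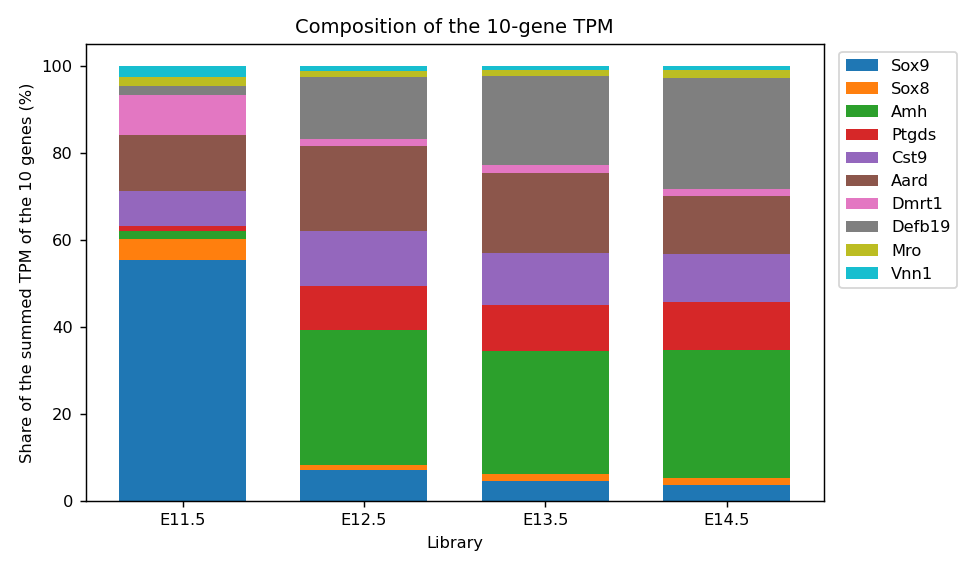
Share of the summed TPM of the 10 Sertoli cell genes held by each gene in the 4 libraries, as stacked bars that add up to 100%. Sox9 holds 55.5% at E11.5 and 3.63% at E14.5, while Amh holds 1.92% at E11.5 and 31.1% at E12.5.

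Sry, the switch upstream of Sox9, had 100, 19, 1 and 0 counts. It fell to 0.209-fold (0.120–0.341) from E11.5 to E12.5. Relative to Sox9 its TPM was 0.126 (0.102–0.154) at E11.5 and 0.0155 (0.00931–0.0242) at E12.5. From E12.5 to E14.5 it was at least 3.77-fold lower, taking 3 counts as the most that a count of 0 allows. The fall of Sry and the rise of Amh, Ptgds and Defb19 were thus found in the same step, and Sox9 was measured at 19.1 or more in every library.

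Among the 16 regulators of testis determination listed, which include Sry, 3 rose and 1 fell between E11.5 and E12.5, with a median logFC of −0.00. The 3 were Gata4 (1.45), Nr5a1 (1.34), a nuclear receptor of the gonad and adrenal, and Lhx9 (1.16), a factor of the early gonad, and the 1 that fell was Sry. Later only Sry was called. In the AMH pathway Amhr2, the receptor for AMH, rose with a logFC of 1.17 (1.06–1.28), while Bmpr1b, a type I receptor, fell by 1.49 and Smad9, a signal transducer, fell by 1.07 on the log2 scale, and the other 4 of the 7 genes stayed within 2-fold. Amhr2 had scaled levels of 13.3, 30.0, 30.7 and 25.0, so that it was already well above Amh at E11.5 and below it from E12.5 on. In the prostaglandin D2 pathway 3 of 5 listed genes were tested, 1 being too low in counts and 1 not analysed here, and Hpgds, the second enzyme able to make prostaglandin D2, fell by 1.55 on the log2 scale as Ptgds rose.

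Of the 20 other Sertoli cell genes, 19 could be tested between E11.5 and E12.5, and 16 rose while none fell, with a median logFC of 3.10. The largest were Etd, which went from 3 to 96 counts (33.6-fold, 11.6–173), Dhh (4.89), the hedgehog ligand of Sertoli cells, Hsd17b3 (4.76), which makes testosterone from androstenedione, and Col9a3 (4.35), a collagen chain. The 3 within 2-fold were Fgf9 (0.74), a growth factor that acts with SOX9, Ctsl (0.53), a protease, and Nr0b1 (0.37), a nuclear receptor. Fshr, the receptor for follicle-stimulating hormone, was the gene not tested, with 0, 12, 29 and 34 counts.

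From E12.5 to E14.5, 5 of these 20 genes were higher and 1 was lower on TMM-scaled counts, while total counts put the median gene at −1.04 for this comparison. Those higher were Hsd17b1 (2.33), a steroid enzyme, Fshr (2.24), Clu (1.43), a secreted chaperone, Ctsl (1.34) and Inha (1.23), the inhibin alpha subunit. Fgf9 was lower by then (−1.38), and had already fallen between E12.5 and E13.5 (−1.50, −1.75 to −1.25). Its highest library was E12.5, as for Sox9, with 290, 443, 198 and 101 counts.

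Of 18 cystatin, defensin and vanin relatives in the tables, 4 had enough counts to be tested in the first step, and 3 of these rose, Cst8, Cst13 and Cst11. The call of Cst11 rests on 3 and 15 counts (5.28-fold, 1.55–29.4). Cst9 sits in a cluster of cystatin genes on chromosome 2, in which Cst8, 29.6 kb away, had 67, 658, 1094 and 494 counts and rose 10.7-fold (logFC 3.42, 3.06–3.81) in the first day. The ratio of Cst8 to Cst9 in TPM was 0.780 (0.547–1.11) at E11.5 and lay between 0.3996 and 0.552 on the later days. Cst13, 4.74 kb from Cst9, went from 2 counts at E11.5 to 37 at E12.5. Cst3, the widely expressed cystatin C gene, stayed within 2-fold with 1592, 2201, 2581 and 1395 counts, and Cstl1 in the same cluster had no counts at all.

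The defensin genes around Defb19 had between 0 and 16 counts in any library, including 0 in every library for Defb21, which lies 1.14 kb away. Next to Dmrt1, Dmrt3 had 13, 63, 66 and 34 counts and rose 5.25-fold (2.88–10.5) in the first day, whereas Dmrt2, farther along, fell by 2.27 on the log2 scale. Vnn3 beside Vnn1 had 0, 0, 6 and 4 counts. Over the listed SOX and DMRT relatives, 1 of the 11 tested rose and 2 fell in the first day, among them Sox11, a factor of early progenitors, at −1.11.

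Among the 10 genes whose course over the 4 libraries was nearest to the median of the members, by Euclidean distance of centred log2 CPM, were AU015836 (0.16), Gstm6 (0.19), Rtn4rl1 (0.20), Cbln1 (0.23), Tesc (0.27), Foxr1, Dppa3, Igfbp7 and Cst8 (0.35). Tesc is among the other Sertoli cell genes listed, and Dppa3 is in the germ cell list. Of the members themselves Cst9 (0.50), Aard (0.51) and Mro (0.57) lay nearest to that median and Amh (3.39) and Sox9 (3.02) farthest. Nearest to Sox9 were Hpgd (0.07), the enzyme that degrades prostaglandins, A3galt2, Vcam1, Gtse1 and Hs6st1. Nearest to Amh were Dazl (0.96), a germ cell gene, then Ptgds (0.96) and Defb19 (1.06). Farther off came Hsd3b1 (1.54), a fetal Leydig gene, and Casq2 (1.70). With 4 libraries these are descriptions only, and ranking by Pearson correlation kept 1 of the 10, 0 of the 5 and 0 of the 5 names.

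Other cell types moved in the same libraries. Between E11.5 and E12.5 the nephric list fell in 7 of 9 genes, with a median logFC of −3.37 and a summed scaled level of 56.1, 10.03, 8.39 and 10.03 from E11.5 to E14.5, and none of its genes was at 0 in any library. The loss of mesonephros and the day of development cannot be told apart in this comparison, and the part of the mesonephros in the rise of the 10 genes was not tested. The ratio of E12.5 to E11.5 ranged from 1.69-fold for Sox9 to 216-fold for Amh. Between E12.5 and E14.5, where no library held mesonephros, 9 of the 10 genes stayed within 2-fold on TMM-scaled counts.

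The 4 Y-linked genes, Ddx3y, Eif2s3y, Kdm5d and Uty, had a summed scaled level of 36.8, 42.5, 37.4 and 40.8, and 0 of 4 was called in any comparison. Scaled to these genes, the logFC of Amh from E11.5 to E12.5 was the lowest of the settings tried at 7.55, and Sox9 then had 0.56. The pregranulosa list, which marks the XX counterpart of the Sertoli cell, rose in 6 of 9 genes in the first day, with a median logFC of 1.38. Foxl2, its key transcription factor, went from 0.114 (0.0977–0.132) of Sox9 TPM at E11.5 to 0.189, 0.501 and 0.912 (0.837–0.994) at E14.5. From E12.5 to E13.5 the list rose with Foxl2 but within 2-fold, with logFC from 0.13 to 0.81, the latter for Foxl2, and a median of 0.34. From E13.5 to E14.5 the list did not follow Foxl2, with a median of −0.48 and 1 gene called lower, against 0.69 for Foxl2. The summed scaled level of the list was 52.0, 85.8, 112 and 88.4 from E11.5 to E14.5. Between E12.5 and E14.5 Foxl2 (logFC 1.49) was the only 1 of the 9 genes called, and the median logFC of the list was −0.11.

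The fetal Leydig list rose in 6 of 6 genes in the first day (median 4.79) and in 6 of 6 again from E12.5 to E13.5 (median 1.94), a step at which 0 of the 10 Sertoli cell genes was called. Its summed scaled level was 5.76, 82.1, 356 and 594. Blood and macrophage genes summed to 560, 1518, 1901 and 1908, most of it from the globin gene Hba-a1, at 476, 1285, 1406 and 1344. In the first day 2 of 6 were higher, the globin genes Hba-a1 and Hbb-bt. The 2 lower were the macrophage genes Csf1r, with scaled levels of 4.23 and then 1.76, and Cx3cr1, with 3.10 and then 1.14. Endothelial genes summed to 81.5, 80.2, 60.4 and 55.4, with 0 of 5 endothelial genes called. None of the 15 housekeeping genes was called in any comparison.

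**Figure D5:**
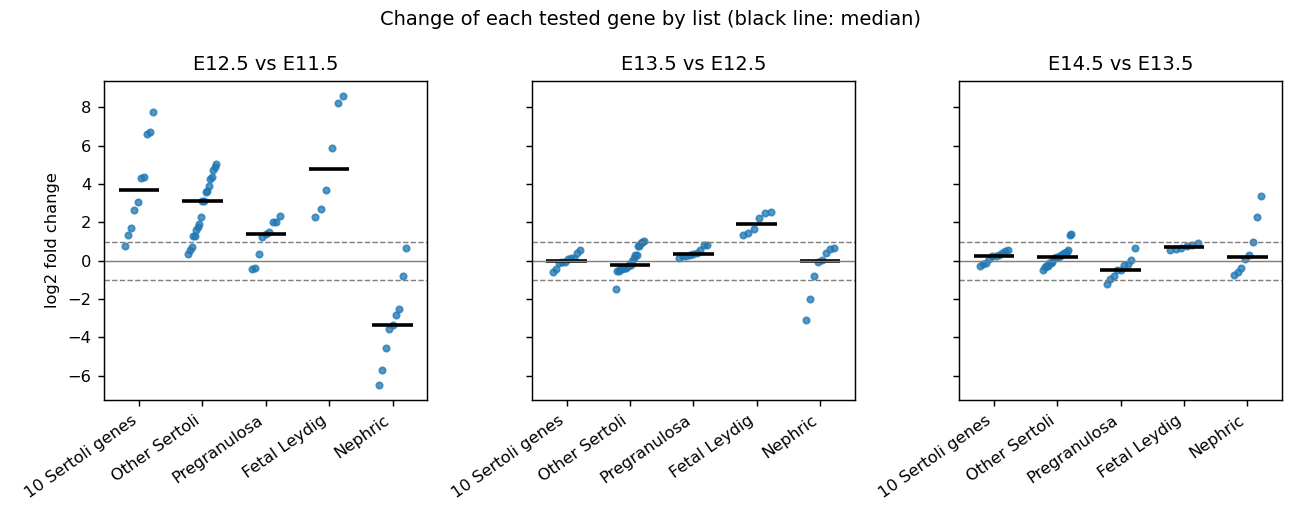
LogFC of every tested gene (points) in 5 lists for the 3 steps between neighbouring libraries, with the median of each list as a black line and dashed lines at 2-fold. The medians of the 10 Sertoli cell genes are 3.72, 0.01 and 0.23, those of the fetal Leydig genes 4.79, 1.94 and 0.73, and the nephric genes have −3.37 in the first step.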

How the data were processed

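Total RNA of 4 gonad pools was measured, 1 library per time point, and libraries were assigned to time points by their titles. The authors digested probe-bound ribosomal RNA with RNase H before stranded library construction with UMIs, mapped reads to mm10 by STAR, collapsed duplicates with UMI-tools and counted reads per gene with featureCounts. The deposited counts are these deduplicated reads, without normalization. The TPM deposited beside them was made by the authors from counts and exon lengths, and the deposited RPKM was not used. Tool versions and the annotation release are not given in the sources used here.

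TMM factors and log2 fold changes (prior count 0.125) were computed with edgeR 4.0.16 in R 4.3.3 on the genes kept by filterByExpr for each pair, and DESeq2 1.42.0 gave alternative size factors. The other steps used scipy 1.17.1, pandas 2.3.3 and numpy 2.4.6 in Python 3.11.15, and plots were drawn with matplotlib 3.10.9. Calls needed a fold of 2 or more, and the calculation was tested on simulated data. Intervals are exact at 95%, and a count of 0 was read as at most 3 counts, which is 0.0945 to 0.117 CPM. Likeness used the genes with at least 100 counts in their highest library (14070 genes, pseudocount 0.1 CPM). All 10 members were named, and from each of 14 further lists genes past 2-fold, or among the 4 highest, could be. Vnn3, Cstl1, Cst3, Defb21, Fgf9, Ctsl and Nr0b1 were named as neighbours or as the exceptions of a count. One gene that the rule would name is not reported here. Alternatives were 5 other scalings, 2 other filters, a prior count of 2, the TPM ratio, edgeR's exact test at a preset biological coefficient of variation of 0.1, 0.2 and 0.4 with an FDR of 0.05, and a fold of 4, with counts in place of TPM for the shares of the 10 genes and Pearson correlation for likeness. The 10 genes and the lists were chosen with earlier results of these data known.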

Additional observations from a re-analysis of the deposited data

How the results depend on the processing

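The count of Sertoli cell genes past 2-fold between E11.5 and E12.5, 9 in the report, was 6 to 10 over the 13 alternatives, and all called genes were higher at E12.5. The count was 0 under every alternative between E12.5 and E13.5. Between E13.5 and E14.5 it was 0 except with total counts, which gave 4 lower, and the deposited TPM, which gave 10 lower. Between E12.5 and E14.5 the count of 1 became 5 lower with total counts, 7 lower with TPM and 0 with no filter, with the exact test at a preset variation of 0.2 or 0.4, and with a fold of 4. There Defb19 turned from 1.03 to −0.022 with total counts and to −0.47 with TPM. These 2 units keep the ribosomal RNA of the E14.5 library in the total, and total counts moved the median gene by −1.07 at E14.5 against E13.5 and by 0.16 at E12.5 against E11.5. With counts in place of TPM the share of Sox9 at E12.5 moved from 7.04% to 18.6% and that of Defb19 from 14.2% to 3.57%. No paired analysis was possible because each time point has 1 library and the labels give no replicate numbers, and for the same reason no library could be left out. Counting depth limits the folds of Amh, Ptgds and Defb19 most, since these had 45, 14 and 9 counts at E11.5. Variation between pools was not measured.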
